A study of Mus musculus with 15 samples.

Results

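The genes described here are 9 markers of the thick ascending limb of Henle's loop and the distal convoluted tubule of the mouse kidney: Umod, Slc12a1, Kcnj1, Bsnd, Cldn16, Cldn19, Slc12a3, Trpm6 and Pvalb. They were chosen by name as textbook genes of these segments, with earlier results of these data known. They are 9 of the 46517 genes in the count files. Their gene bodies with 2 kb on either side (build GRCm38) held 938 of the 4944536 cytosine positions read by reduced representation bisulfite sequencing (RRBS), a method that sequences CpG-rich restriction fragments after bisulfite treatment and so reports methylation at a sampled part of the genome. All mice were C57BL/6. The control group carried floxed Dnmt1 alleles (Dnmt1 f/f) and was taken at postnatal day 0 (P0). The knockout group (KO) was of the same age and carried the same floxed alleles together with Six2Cre, a Cre recombinase driven by the nephron progenitor gene Six2. Dnmt1 encodes the methyltransferase that copies methylation onto the new DNA strand at replication. The remaining group was wild type and 6 weeks old, so it differed from the controls in both age and Dnmt1 genotype, and it had RRBS only. Each group held 3 samples per assay, with RNA-seq in controls and KO, and the labels do not say whether samples came from separate animals, so p-values measure the spread between these samples, which may be technical. The labels name Six2-positive cells as the source, whereas the extraction protocol names whole kidneys for DNA, and the values are treated as those of kidney tissue.

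The thick limb reabsorbs salt without water. Slc12a1 (the furosemide-sensitive cotransporter NKCC2) brings sodium, potassium and chloride into the cell, Kcnj1 (the channel ROMK) returns potassium to the lumen, and barttin, encoded by Bsnd, is needed for chloride to leave the cell. The resulting lumen-positive voltage drives calcium and magnesium between the cells through pores formed by Cldn16 and Cldn19. Umod encodes uromodulin, the most abundant protein of normal urine and a product of the thick limb. In the next segment, the distal convoluted tubule, Slc12a3 (the thiazide-sensitive cotransporter NCC) takes up sodium and chloride, Trpm6 takes up magnesium, and Pvalb encodes the calcium-binding protein parvalbumin. These epithelia descend from the Six2-expressing progenitors in which the Cre was driven. Stroma, endothelium and the collecting duct, which derives from the ureteric bud, do not.

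Sequences are shown first because methylation was read at some of these start sites and their CpG content differs. They were read from the RefSeq promoter table (GRCm38.p6), which held 8 of the 9 genes and not Bsnd. Each is written 5′ to 3′ on the strand of its gene. Capitals in the first 4 mark CpG dinucleotides in the 120 bases before the start site. Pvalb has an upstream start with few CpG (chr15:78206401-78206520, minus strand) and a downstream start inside a CpG-dense stretch (chr15:78204238-78204357, minus strand). Trpm6 (chr19:18749610-18749729, plus strand) lies between them in CpG content, and the bases before the Umod start (chr7:119479263-119479382, minus strand) hold none.
Pvalb upstream start: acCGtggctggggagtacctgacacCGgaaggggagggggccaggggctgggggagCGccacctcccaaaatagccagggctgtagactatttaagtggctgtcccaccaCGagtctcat
Pvalb downstream start: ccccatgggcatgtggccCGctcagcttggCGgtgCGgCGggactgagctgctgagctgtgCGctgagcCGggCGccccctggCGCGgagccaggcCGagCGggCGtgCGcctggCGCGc
Trpm6 start: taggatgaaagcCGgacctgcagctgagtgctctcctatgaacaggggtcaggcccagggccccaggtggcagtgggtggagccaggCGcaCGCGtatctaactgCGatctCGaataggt
Umod start: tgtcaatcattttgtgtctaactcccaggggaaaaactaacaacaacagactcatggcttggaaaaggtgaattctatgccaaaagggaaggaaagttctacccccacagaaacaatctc

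Over the 250 bases before each start, the 10 windows of the 8 genes held a median of 3.5 CpG, against 10 over 21263 windows of protein-coding genes. The counts ran from 0 for Umod and 2 for Kcnj1 through 3 for Slc12a3 to 23 at the downstream Pvalb start. The windows of the Cldn19 starts (chr4:119255441 and chr4:119255469) overlap, hold 3 CpG each and were counted separately. A share of 50% of the member windows had 3 or fewer CpG, against 29.0% of all windows. Short motifs were searched in the same bases. GTTAAT, the core of the site bound by the tubule factor HNF1, was searched on both strands and found in 1 member window (Umod, 202 bases before the start) and in 5.86% of all windows. TATAAA, the TATA box, was searched on the gene's strand and found in 1 member window (Slc12a3, 32 bases before the start) and in 7.67% of all windows. AAGGTCA, the site of estrogen-related receptors, was searched on both strands and found in 0 member windows and 3.59% of all windows. None of these motifs overlapped another in a member window, and a match is a description of the letters only. Both matches are shown in capitals, for Umod at chr7:119479425-119479484 on the minus strand and for Slc12a3 at chr8:94329148-94329207 on the plus strand.
Umod, GTTAAT: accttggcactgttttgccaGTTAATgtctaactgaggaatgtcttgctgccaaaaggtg
Slc12a3, TATAAA: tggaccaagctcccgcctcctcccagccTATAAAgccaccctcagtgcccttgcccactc

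The RNA libraries held 26773937 to 34102567 reads assigned to genes, and the RRBS libraries 18424875 (KO 3) to 88765177 (control 2) methylation calls, where the median position of KO 3 had 4 calls. Dnmt1, the targeted gene, was at 180, 156 and 188 CPM (reads scaled to a common library size with TMM factors) in the controls and 110, 111 and 93.7 CPM in the KO. Its log2 fold change was −0.74 (SE 0.12, adjusted p = 0.00577 in edgeR), and every KO value lay below every control value. Transcripts of other lineages were present in all 6 RNA libraries: summed endothelial markers were at 551 to 797 CPM in controls and 367 to 445 CPM in KO, and summed stromal markers at 3307 to 4507 and 2856 to 3606 CPM. No gene of any of the 10 marker lists was at 0 in all 6 libraries.

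In the KO kidneys 8 of the 9 genes fell by between 4.50-fold (Cldn19) and 22.6-fold (Umod), no member rose, and Trpm6 did not pass the test. Uromodulin showed the deepest loss and was left at 4.43% of its control mean. The sodium cotransporters of both segments, Slc12a1 and Slc12a3, were left at 12.3% and 8.64%. Across all 18132 genes tested by edgeR's quasi-likelihood test at an adjusted p under 0.05, 8.23% were lower and 6.36% higher in KO, and 17.9% had every KO value below every control value. The median log2 fold change was −3.02 over the members and −0.000738 over all genes. In tissue RNA, fewer cells of a type and less RNA per cell cannot be told apart. Gene lengths in exons were not used, so levels are compared only within a gene.

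Umod (ENSMUSG00000030963.5) was at 299, 359 and 432 CPM in controls 1 to 3 and at 13.1, 18.3 and 16.9 CPM in KO 1 to 3. The groups were far apart, since the lowest control exceeded every KO sample more than 10-fold. The means were 364 ± 66.2 and 16.1 ± 2.72 CPM (SD, n = 3 each), and the edgeR log2 fold change was −4.50 (SE 0.20, adjusted p = 2.49e-05). The KO values still rested on 420 to 560 reads per sample, so uromodulin RNA was reduced and not absent.

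Slc12a1 was at 598, 783 and 645 CPM in controls and at 71.1, 108 and 71.1 CPM in KO. KO 2 was the highest of its group and remained below every control. The means were 675 ± 96.3 and 83.3 ± 21.1 CPM (SD, n = 3), with a log2 fold change of −3.02 (SE 0.22, adjusted p = 0.000127 in edgeR).

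Kcnj1, the potassium channel that recycles the ion for the cotransporter, was at 44.0, 59.3 and 60.1 CPM in controls and 8.37, 11.3 and 7.59 CPM in KO. Its log2 fold change was −2.58 (SE 0.20, adjusted p = 0.000192 in edgeR), with no overlap between the groups. Bsnd, the chloride channel subunit, was at 46.9, 44.2 and 51.2 CPM in controls and 4.67, 6.55 and 6.38 CPM in KO. Its relative spread among the controls was the smallest of the 9 genes, and its log2 fold change was −3.02 (SE 0.17, adjusted p = 5.91e-05 in edgeR). All parts of the transcellular salt route named here, the cotransporter, the potassium channel and the chloride channel subunit, were thus lower in every KO sample.

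Both claudins of the cation pore fell. Cldn16 was at 13.0, 14.3 and 11.3 CPM in controls and 2.05, 2.92 and 2.24 CPM in KO, with a log2 fold change of −2.42 (SE 0.22, adjusted p = 0.000418 in edgeR). Cldn19 was at 45.7, 47.9 and 84.8 CPM in controls and 17.2, 12.2 and 10.3 CPM in KO. Control 3 was 1.81 times the mean of the other controls, and KO values lay below all 3 of them. The log2 fold change of Cldn19 was −2.17 (SE 0.29, adjusted p = 0.00206 in edgeR).

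The distal convoluted tubule genes were more uneven. Slc12a3 was at 97.8, 67.7 and 241 CPM in controls and at 11.5, 10.9 and 12.6 CPM in KO. The KO samples lay within 2 CPM of one another, while control 3 was 2.91 times the mean of controls 1 and 2. The log2 fold change was −3.53 (SE 0.45, adjusted p = 0.00167 in edgeR), and every KO value lay below every control. Without control 3 it was −2.82 (adjusted p = 1.34e-05 in edgeR). Pvalb was at 6.15, 4.88 and 6.49 CPM in controls and 0.623, 0.262 and 0.607 CPM in KO. Parvalbumin RNA fell by 11.7-fold, to 20, 8 and 16 reads in the KO samples (log2 fold change −3.55, SE 0.37, adjusted p = 0.000671 in edgeR).

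Trpm6, the magnesium channel, did not follow the others. It was at 2.74, 2.65 and 14.0 CPM in controls and at 3.49, 3.41 and 2.66 CPM in KO, so that control 3 alone stood high and the other controls overlapped the KO samples. Control 3 was 5.19 times the mean of the other 2 controls. The log2 fold change was −1.02 (SE 0.62, adjusted p = 0.341 in edgeR). Without control 3 it was 0.24 (adjusted p = 0.476 in edgeR), so neither a fall nor its absence was shown for Trpm6 here.

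**Figure D1:**
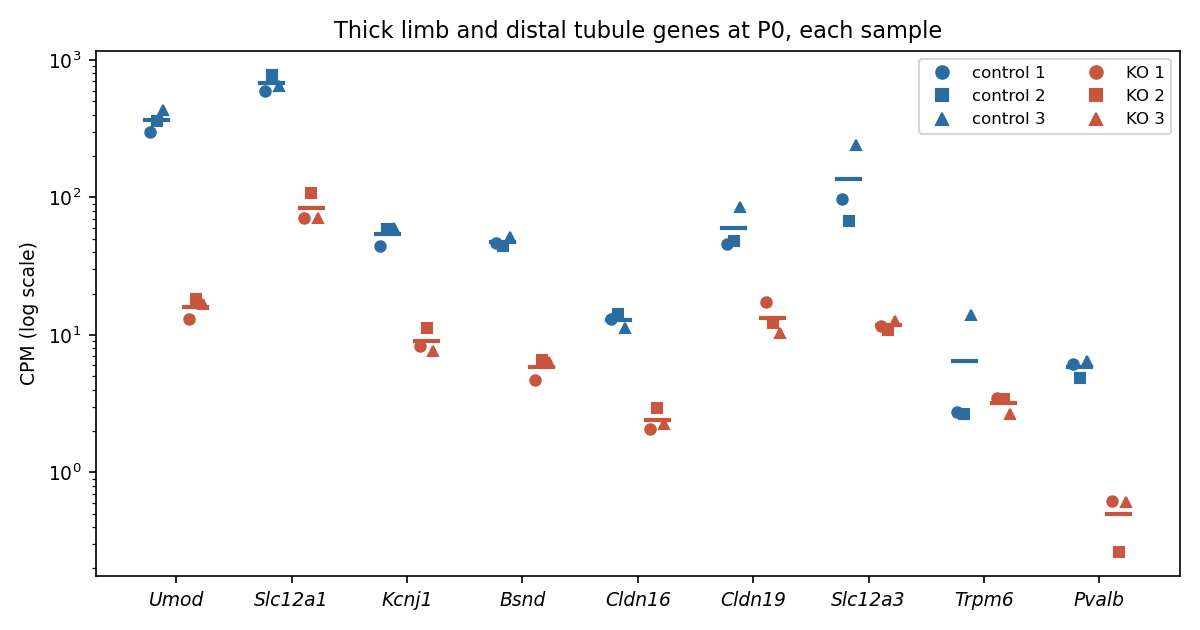
Expression of the 9 genes in each P0 kidney sample, in CPM on a log axis; blue symbols are controls 1 to 3, red symbols KO 1 to 3, and horizontal bars are group means. In 8 genes every red symbol lies below every blue symbol, and in Trpm6 only control 3 (14.0 CPM) stands above the rest.

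The member genes did not all fall by the same amount. The log2 ratio of Umod to Slc12a1, which is not corrected for gene length and is used only to follow change, was −0.997, −1.12 and −0.58 in controls and −2.44, −2.55 and −2.08 in KO. Umod thus lost more than Slc12a1 did in every KO sample, and the mean ratio fell by 1.46 on the log2 scale. The ratio of Kcnj1 to Slc12a1 was 0.45 higher in KO, again with no overlap between the groups, so Kcnj1 lost less. The ratios of Bsnd to Slc12a1, of Cldn16 to Cldn19, of Slc12a3 to Slc12a1 and of Pvalb to Slc12a3 overlapped between the groups. These ratios are descriptions and were not tested.

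Over the 6 RNA samples, 8 members had a Pearson r of 0.94 to 0.99 with the mean profile of the other members, and Trpm6 had 0.41. Since controls and KO are 2 well separated clusters, these values mainly restate the group difference. The 5 other genes with the most similar profile were Atp6v0a4, a proton pump subunit of acid-secreting cells (r = 0.999, log2 fold change −2.19), Acad8, a mitochondrial enzyme of valine breakdown (−0.42), Aldh16a1 (−0.42), the glycerol kinase gene Gk (−1.44) and Hint2 (−0.77).

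Other kidney cell types moved beside these genes. Summed CPM over the 9 members was 1153 to 1545 in controls and 130 to 173 in KO. Summed proximal tubule markers, from another segment of the same lineage, were at 1959 to 4816 CPM in controls and 383 to 447 CPM in KO, with 10 of 10 genes lower. Podocyte markers were at 759 to 1069 and 283 to 362 CPM, with 6 of 6 lower. The fall thus covered genes of other nephron segments too. The summed nephron progenitor markers were at 545 to 590 CPM in controls and 533 to 581 CPM in KO, with 2 of 8 genes lower and 2 higher. That sum hides changes of single genes. Cited1 and Itga8 were lower (log2 fold change −2.53 and −0.79), and Eya1 and Osr1 were higher (0.65 and 0.95). Of the collecting duct and ureteric markers, 2 of 10 were lower and 1 higher, and of the endothelial markers 4 of 5 were lower, by at most 0.89 on the log2 scale. Among the 6 stromal markers 0 were lower and 2 higher, Foxd1 and Meis1 (log2 fold change 1.63 and 0.54). Control 3, the library high in Trpm6, Slc12a3 and Cldn19, was also the highest in proximal tubule markers (4816 CPM, against 2147 and 1959 CPM in controls 1 and 2). The part of these markers in the member results was not tested.

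Beyond the members, 5 lists of related genes were followed, 69 genes in all, of which 67 were tested. Of these 37 were lower in KO, 4 were higher and 26 did not pass the test, with a median log2 fold change of −0.81. The background shares are those given above, 8.23% lower and 6.36% higher. The lists were written with earlier results on these samples known and are not independent evidence of a direction.

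In the list of thick limb salt transport, 10 of 15 genes were lower, 0 higher and 5 not called (median −1.53). Fxyd2, the gamma subunit that modulates the sodium pump, went from 531 ± 47.3 to 85.5 ± 12.6 CPM (log2 fold change −2.63, adjusted p = 7.36e-05 in edgeR).

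In the list of secreted and paracellular thick limb genes, 5 of 11 tested genes were lower and 2 higher (median −0.49). Sostdc1, a secreted BMP and Wnt antagonist, fell from 153 ± 10.1 to 30.0 ± 3.34 CPM (adjusted p = 5.01e-05 in edgeR), and Cldn10, the claudin of the sodium-permeable pore, from 83.5 ± 9.81 to 12.9 ± 1.81 CPM (adjusted p = 5.82e-05). Tmem72 fell from 46.3 ± 20.2 to 6.45 ± 1.18 CPM (adjusted p = 0.000895). The 2 that rose were Cldn3, a sealing claudin of many epithelia, from 36.0 ± 9.22 to 63.9 ± 8.95 CPM (adjusted p = 0.028), and Ptgs2, which encodes the prostaglandin enzyme COX-2 of the macula densa, from 3.26 ± 0.777 to 8.12 ± 0.656 CPM (adjusted p = 0.00902). The call of Cldn3 was lost without control 1 or any 1 KO sample (adjusted p = 0.0646 to 0.111 in edgeR).

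In the list around the thiazide-sensitive cotransporter, which holds its WNK kinase pathway and other distal convoluted tubule genes, 6 of 12 were lower and 0 higher (median −0.91). Emx1, a homeobox gene, fell from 21.6 ± 7.00 to 3.53 ± 0.345 CPM (adjusted p = 0.000606 in edgeR). Tmem52b fell from 96.4 ± 29.0 to 15.7 ± 2.21 CPM, and Ppp1r1a, a protein phosphatase inhibitor, from 37.6 ± 1.26 to 11.2 ± 1.34 CPM.

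In the list of magnesium and calcium handling, 5 of 15 tested genes were lower, 2 higher and 8 not called (median −0.16). S100g, the small calcium-binding protein calbindin-D9k, fell from 283 ± 67.5 to 50.9 ± 2.09 CPM (adjusted p = 0.000178 in edgeR), and Trpv5, the apical calcium channel, from 10.3 ± 2.73 to 2.05 ± 0.495 CPM (adjusted p = 0.0016). Pcbd1, a cofactor of HNF1 factors, fell from 95.1 ± 16.8 to 34.5 ± 2.80 CPM (adjusted p = 0.000624). The 2 that rose were Egfr, the receptor for epidermal growth factor, from 24.4 ± 4.80 to 46.7 ± 5.77 CPM (adjusted p = 0.00863), and Calb1, the larger calbindin, from 196 ± 26.6 to 290 ± 15.3 CPM (adjusted p = 0.0274). Both calcium binding proteins of the list thus changed, in opposite directions. Calb1 is also expressed in the ureteric tree and Egfr in many cell types. The call of Calb1 was lost without control 1, control 2 or any 1 KO sample (adjusted p = 0.0675 to 0.123 in edgeR), with library size alone (0.0552) and with the replicate block (0.0928).

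In the list of distal nephron transcription factors, 11 of 14 were lower and 0 higher (median −0.96). Irx2 fell from 29.6 ± 5.58 to 5.13 ± 0.185 CPM, Sim2 from 27.8 ± 3.92 to 4.73 ± 1.10 CPM and Irx1 from 68.1 ± 22.5 to 13.9 ± 0.678 CPM (adjusted p = 0.000145, 0.000288 and 0.000706 in edgeR). Irx1 and Irx2 are patterning homeobox genes that mark intermediate nephron segments during development.

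**Figure D2:**
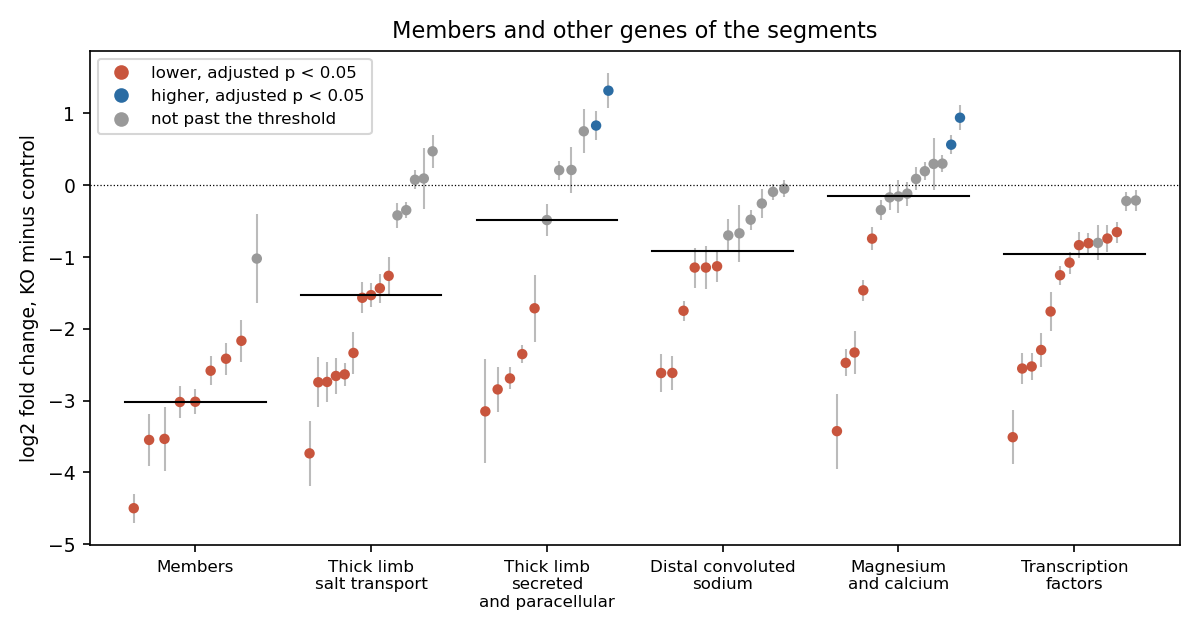
Log2 fold change (KO minus control) of the 9 members and the tested genes of the 5 related lists; each point is 1 gene with its standard error, and black bars are medians. Red points passed the edgeR test as lower, blue as higher, and grey did not pass; the members' median is −3.02, and blue points occur in 2 lists.

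DNA methylation was compared next, as an unweighted mean over the positions that reached 10 calls in every RRBS sample. The number of such positions was 4 for Umod, 28 for Slc12a1, 1 for Kcnj1, 3 for Bsnd, 5 for Cldn16, 6 for Cldn19, 8 for Slc12a3, 30 for Trpm6 and 10 for Pvalb. Neighbouring positions 1 base apart can be both strands of the same CpG. In 8 of the 9 regions, all but Umod, every KO sample lay below every control sample. This was also so in 69.8% of 16550 gene regions measured the same way. In 0 member regions, and in 0.707% of all regions, every KO sample lay above. The members' median difference was −22.1 percentage points, against −10.7 points over all gene regions and −21.1 points over the 5580 regions whose control mean was at least 60%, so the members lost about as much as other highly methylated genes. With 3 samples against 3, the 2-sided exact permutation test cannot go below p = 0.1, the value reached wherever groups did not overlap. Each percent mixes all cell types of the kidney sample. In KO and in adults alike, methylation changed within cells and changed shares of cell types cannot be told apart. Neither was tested.

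The Slc12a1 region (chr2:125152510-125230002 with its flanks) was methylated at 79.5%, 80.2% and 77.5% in controls and 57.2%, 54.4% and 59.4% in KO. The Trpm6 region (chr19:18730177-18892521) was at 71.5%, 69.7% and 69.8% in controls and 48.7%, 44.1% and 51.9% in KO. These 2 regions rest on the most positions, and their differences of −22.0 and −22.1 points were alike. Slc12a1 RNA fell and Trpm6 RNA did not pass the test, and a relation to methylation was not tested. The Slc12a3 region (chr8:94329109-94366222) was at 70.6%, 68.1% and 73.7% in controls and 46.7%, 43.6% and 39.0% in KO, a loss of 27.7 points. That was 39.2% of its control methylation.

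The claudin and Bsnd regions lost similar amounts. Cldn16 (chr16:26463135-26482765) was at 78.9%, 83.3% and 76.8% in controls and 48.5%, 61.6% and 68.4% in KO. Cldn19 (chr4:119255441-119262438) was at 75.9%, 70.8% and 79.6% in controls and 50.2%, 45.6% and 63.7% in KO. Bsnd (chr4:106483456-106492243) was at 78.3%, 78.3% and 72.7% in controls and 50.7%, 42.8% and 61.0% in KO. KO 3, the shallowest library, was the highest KO sample in all 3 regions. It was also the highest in every other member region except Slc12a3, where it was the lowest. With another minimum number of calls the Cldn19 loss was larger, at −33.5 points (5 calls, 12 positions) and −37.6 points (20 calls, 1 position).

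Pvalb (chr15:78191112-78206400) went from 80.5%, 81.2% and 81.7% in controls to 66.4%, 62.5% and 78.9% in KO. That loss of 11.8 points depended on the positions averaged: it was −6.00 points within the gene bounds alone, where the groups overlapped (exact p = 0.4), and −31.4 points over the 3 positions with at least 20 calls. Kcnj1 (chr9:32372418-32399197) rested on a single position, at 100%, 91.6% and 96.8% in controls and 84.1%, 50% and 84.6% in KO, with as few as 13 calls in a sample. Its difference was −23.2 points with KO 2 and −11.8 points without it. When 5 calls were required, 7 positions gave −16.5 points and the groups overlapped (exact p = 0.5), which leaves 7 regions without overlap. Umod (chr7:119462708-119479262), the gene with the deepest RNA loss, was at 34.2%, 28.4% and 29.2% in controls and 32.8%, 22.2% and 53.9% in KO over 4 positions. KO 3 stood apart with 66 calls in all, and the difference was 5.71 points with it and −3.07 points without it (exact p = 0.8 and 0.6).

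Adult kidneys differed from newborn controls at fewer of these genes. In 4 of 9 regions every adult sample lay below every control, and in 0 every adult lay above, while 24.5% of all gene regions were below and 12.3% above. Cldn19 was at 53.9%, 48.5% and 43.0% in adults, a difference of −26.95 points. When 5 calls were required it was −15.8 points over 12 positions. Bsnd was at 61.0%, 58.1% and 53.3% (−18.9 points), Slc12a3 at 53.1%, 56.8% and 60.6% (−13.96 points) and Pvalb at 79.5%, 75.6% and 78.1% (−3.37 points), each with exact p = 0.1. Slc12a1 at 81.0%, 80.0% and 80.6% and Trpm6 at 70.4%, 71.4% and 69.9% overlapped the controls, with differences of 1.498 and 0.22 points. When 20 calls were required in every RRBS sample, which left 6 of the genes, no region was below, Slc12a3 stood at −2.50 points and Cldn19, on 1 position, at 3.87 points, so the adult differences of these 2 genes rest on positions with 10 to 20 calls in some sample.

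**Figure D3:**
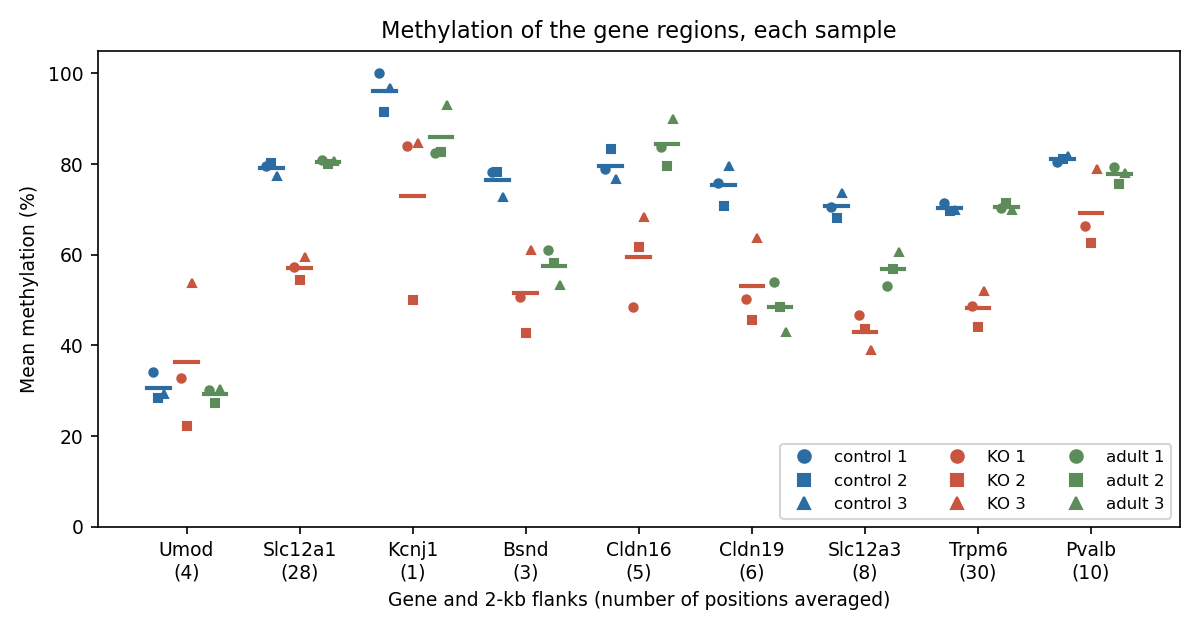
Mean methylation (percent) of the 9 gene regions in each RRBS sample; blue is control, red KO and green adult, bars are group means, and the number of positions averaged is given under each gene. Red symbols lie below all blue symbols except at Umod, and green symbols lie below the blue ones at Bsnd, Cldn19, Slc12a3 and Pvalb.

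Single positions were tested with a quasi-binomial model over all positions covered by at least 10 calls in the 6 samples compared, and called at an adjusted p under 0.05 with a difference of at least 10 points. In KO, 49 of the 95 tested positions in the member regions were lower (51.6%) and 0 higher, against 35.6% lower and 0.146% higher over all 380162 positions. Where the control mean was at least 60%, the shares were 48 of 70 (68.6%) in the members and 63.9% over all such positions, which is near the background. By gene, the lower positions were 14 of 28 at Slc12a1, 18 of 30 at Trpm6, 5 of 10 at Pvalb, 4 of 8 at Slc12a3, 4 of 5 at Cldn16, 2 of 6 at Cldn19, 1 of 3 at Bsnd, 1 of 1 at Kcnj1 and 0 of 4 at Umod.

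The start sites of Pvalb differed from each other. At the CpG-poor upstream Pvalb start (chr15:78206400), whose sequence is given above, the summed calls from 250 bases before to 300 bases after the start were methylated at 93.8%, 96.2% and 97.3% in controls, 62.6%, 58.5% and 59.7% in KO and 90.4%, 88.2% and 90.2% in adults. At the CpG-dense downstream start (chr15:78204237) the same window was at 0%, 0.769% and 1.14% in controls and 0%, 1.74% and 5% in KO. The 5% of KO 3 was 1 methylated call of 20 (95% Clopper-Pearson interval 0.127% to 24.9%). The 0% of control 1 came from 75 calls (interval 0% to 4.80%). These limits cover counting error only. Start windows sum every call with no minimum per position, so the positions read can differ between samples. One gene thus carries both a start that was methylated and lost methylation in KO and a start that was unmethylated in all 3 groups.

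The position 64 bases before the upstream Pvalb start was at 93.8%, 98.7% and 100% in controls, 58.1%, 65.5% and 57.1% in KO and 89.5%, 75.6% and 88.9% in adults. Its difference in KO was −37.2 points (adjusted p = 0.000807). The position 95 bases before the start lost 33.1 points (adjusted p = 0.00236) and the one 46 bases after it lost 28.6 points (adjusted p = 0.000738). All 3 were lower in every KO sample. Whether RRBS and RNA samples came from the same animals is not stated, and a relation between methylation and RNA was not tested.

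Trpm6 was unmethylated at the RefSeq start read here (chr19:18749730) and methylated before it. That start lies inside the annotated gene bounds (chr19:18730177-18892521), and no start window was read at their 5′ end. The Trpm6 start-site window was at 0.592%, 3.34% and 0.256% in controls and 0.659%, 1.96% and 4.29% in KO. In adults it was at 1.02%, 1.25% and 0.916%, so it was nearly unmethylated in every sample. The 4.29% of KO 3 was 3 of 70 calls (95% Clopper-Pearson interval 0.893% to 12.0%). The position 430 bases before the start was at 92.9%, 80.8% and 90.9% in controls and 55.6%, 36% and 50% in KO, a difference of −41.0 points (adjusted p = 0.00692). The adults, at 83.3%, 95.2% and 95.7% there, overlapped the controls.

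In the other start windows, also summed over whatever positions were read, Slc12a3 and Cldn19 had as few as 15 and 16 calls in KO 3. Cldn16 had at least 84 calls in every sample. Slc12a3 was at 96.8%, 88.2% and 89.9% in controls, and at 86.4%, 42.9% and 20% in KO, the last from 3 of 15 calls. Cldn16 was at 60.4%, 75.4% and 60.5% in controls and 39.9%, 44.3% and 67.9% in KO, which overlap. Cldn19 was at 91.1%, 89.2% and 94.3% in controls and 32.3%, 79.3% and 37.5% in KO. No RRBS position fell in the windows of Umod, Slc12a1 or Kcnj1, so these start sites were not measured. The Kcnj1 start used here (chr9:32393985) lies inside the annotated gene bounds (chr9:32372418-32399197), and no window was read at their 5′ end.

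Away from the starts, Cldn19 had the smallest adjusted p among the members' positions. At chr4:119262335, within the annotated gene, methylation was 92.4%, 92.3% and 89.1% in controls, 54.6%, 57.7% and 48.8% in KO and 93.8%, 94.2% and 97.5% in adults (KO difference −37.6 points, adjusted p = 5.68e-05). At Slc12a3, chr8:94360406 was at 89.9%, 93.1% and 97.9% in controls and 60.3%, 60.9% and 62.5% in KO (−32.4 points, adjusted p = 0.000554). At Slc12a1, the position at −1313 bases from the start (chr2:125151287) went from 80%, 71.5% and 78.5% to 47.3%, 47.6% and 23.8% (adjusted p = 0.00223).

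Between newborn controls and adults, 8 of 194 tested positions were lower (4.12%) and 2 higher (1.03%), against 1.83% lower and 1.78% higher over all 704580. At a control mean of at least 60%, 7 of 133 were lower (5.26%), against 2.55% of all such positions. Cldn19 held 3 of the 8, Slc12a3 held 2, and Umod, Kcnj1 and Bsnd 1 each. The Cldn19 positions lie together, within 1942 bases after the upstream start. The one at chr4:119257383 was at 72.7%, 74.5% and 81.5% in controls, 46.7%, 33.3% and 50% in KO and 31.6%, 18.9% and 17.5% in adults. It was lower in adults by 53.6 points (adjusted p = 0.00217) and in KO by 32.9 points (adjusted p = 0.0264), and both comparisons share the 3 control samples. At Slc12a3, chr8:94348577 was at 50%, 67.6% and 77.8% in controls and 18.9%, 32.7% and 37.5% in adults (adjusted p = 0.0316). The positions that were higher in adults were chr2:125203395 in Slc12a1, by 40.2 points, and chr19:18889559 in Trpm6, by 19.6 points. The count of lower adult positions dropped to between 1 and 3 when any 1 of the 6 samples was left out.

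**Figure D4:**
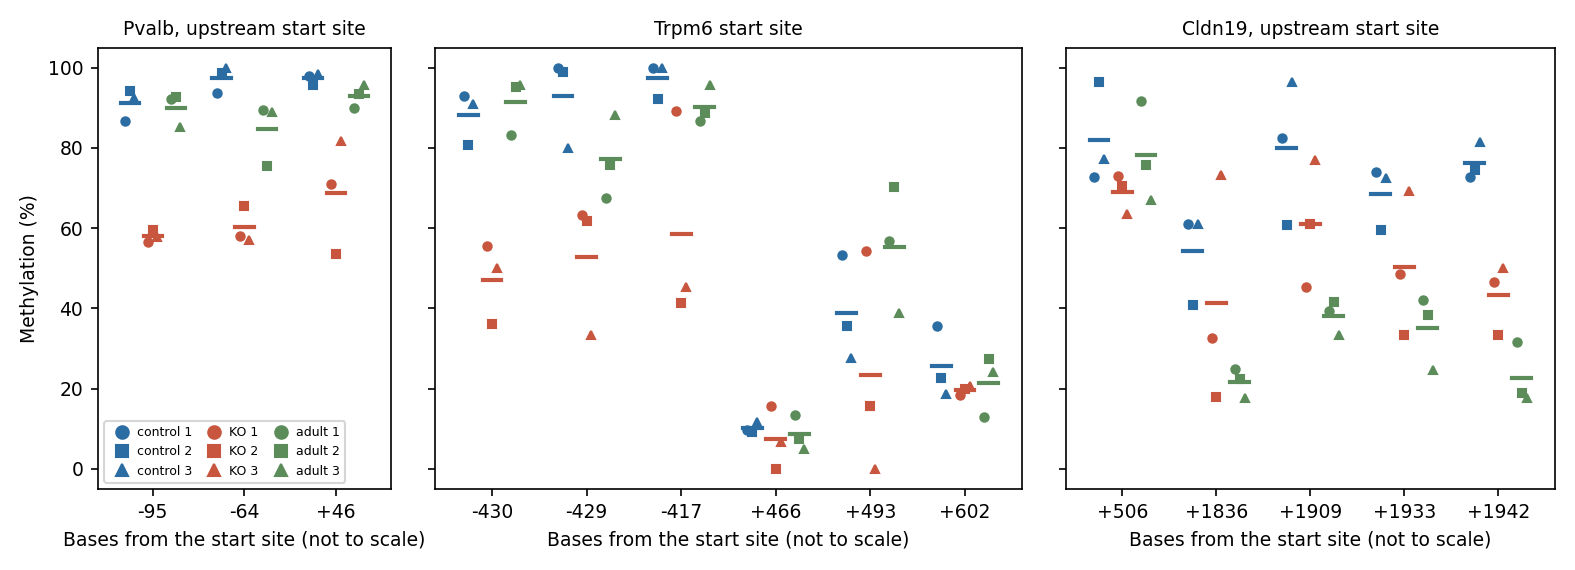
Methylation (percent) at positions with at least 10 calls in every sample near the upstream Pvalb start, the Trpm6 start and after the upstream Cldn19 start; symbols are samples, short bars are group means, and positions are ordered by bases from the start, not to scale. Red KO symbols lie below blue controls at the 3 Pvalb positions, and green adult means are lowest at the Cldn19 positions 1836 to 1942 bases after the start.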

How the data were processed

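Kidneys were profiled by RRBS (9 samples) and poly-A RNA-seq from 200 ng RNA (6 samples). The authors deposited raw read counts per gene and, per cytosine, a methylation percent with counts of methylated and unmethylated calls. Per the submitters' processing notes, Trim Galore, Bismark, STAR 2.4.1d, HTSeq 0.6.1 and the builds mm10 and GRCm38 were used, and the strand setting of the counting is not given in the sources used here. Annotated non-coding genes overlap Slc12a1, Kcnj1, Cldn19 and Trpm6, so reads there could be shared. Unassigned reads (22.9% to 35.8% of each RNA file) were left out. Gene counts entered edgeR 4.0.16 under R 4.3.3 (quasi-likelihood F test, TMM, filterByExpr, Benjamini-Hochberg over all tested genes), with DESeq2 1.42.0 and limma 3.58.1 (voom) as alternatives. CPM were computed from TMM-scaled library sizes. Positions were tested (Python 3.11.15, scipy 1.17.1, numpy 2.4.6) by a quasi-binomial logistic model with moderated overdispersion, adjusted over all tested positions. Region means were compared with 2-sided exact permutation tests, unadjusted over the 9 genes. Calls per position set the precision of each percent. PCR reads are not independent molecules, so intervals cover counting error only. On simulated data, edgeR recovered 90.7% of 193 genes changed 4-fold, with 18 false calls among 17835 genes, and the position model recovered 87.7% of 3000 positions lowered by 40 points, with 5.40% of its calls false.

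Members and lists were chosen with earlier results of these data known. All 9 members and Dnmt1 were named, and from each related list the 3 genes with the smallest p plus any gene past 0.05 against the list's majority. Some genes that this rule names in the salt transport list are not reported here. Genes of similar profile were the 5 with the highest Pearson r to the members' mean z-score, at a mean log2 CPM of at least 1, clone-named genes left out. Single positions named in the text were chosen after their values were seen.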

Additional observations from a re-analysis of the deposited data

How the results depend on the processing

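The 8 genes called lower kept their direction and passed the threshold in 111 of 111 fits over 14 alternatives, and the log2 fold change of Slc12a3 ranged from −3.86 to −2.82. Pvalb could not be tested with at least 10 counts in every sample. Trpm6 turned to 0.10 with voom and 0.24 without control 3, and ranged from −1.40 to 0.24 when 1 sample was left out. Uncalled genes whose sign changed on leaving out 1 sample ranged from −0.16 to 0.68 (Kcnt1), −9.5e-05 to 0.17 (Oxsr1), −0.024 to 0.61 (Nos1), −0.43 to 0.020 (Wnk1), −0.049 to 0.27 (Trpm7), −0.27 to 0.0080 (Slc41a1) and −0.31 to 0.065 (Trpv6). Over all genes, lower and higher calls were 2595 and 2442 with voom and 681 and 528 at an adjusted p under 0.01, and higher calls were 678 with at least 10 counts in every sample. Leaving out 1 sample gave 701 (without KO 1) to 2561 (without control 3) lower and 647 to 2512 higher. Higher calls in the related lists were 2 at 0.01 and 2 to 5 without 1 sample. For positions in KO, lower calls were 22 at 20 calls and 29 at 0.01, and 33 to 63 without 1 sample; higher calls were 1 without overdispersion and 0 to 1 without 1 sample. For adult regions, those above numbered 1 at 5 calls, 1 at 20 calls and 0 to 2 without 1 sample, and those below 0 at 20 calls. Adult positions lower and higher were 24 and 11 without overdispersion, and 2 and 1 at 0.01; lower were 3 at 20 calls. Without 1 sample they were 1 to 3 lower and 0 to 1 higher. Region differences that changed sign were Umod in KO (−3.07 to 12.8 without 1 sample) and, in adults, Umod (1.93 at 5 calls, 0.0508 weighted by calls, −2.38 to 0.506 without 1 sample), Kcnj1 (5.30 at 5 calls), Trpm6 (−0.0617 at 5 calls, −1.98 weighted, −0.192 to 0.811 without 1 sample) and, at 20 calls, Slc12a1 (−1.84), Cldn16 (−0.856) and Cldn19 (3.87). The causes were not tested. Whether like-numbered samples belong together is not stated. The RNA deviations of a control and its like-numbered KO correlated at −0.212, −0.0542 and −0.115. With 3 samples per group, each centred on its own mean, these values cannot exclude pairing. With a replicate block, adult positions were 18 lower and 7 higher, KO positions 55 lower, and the 8 genes stayed lower. On simulated data the blocked position model made 17.96% false calls. Depth limits the regions of Kcnj1 (13 to 71 calls per sample) and Umod (66 to 276).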
